A study of Rattus norvegicus with 18 samples.

Results

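Narrow peaks were the merged H3K4me3 peaks on chromosomes 1 to 20 that were less than 700 bp wide. They were chosen by chromosome and width alone, and 1525 of 16364 peaks met the rule, which is 9.32% of all peaks and 2.87% of the summed peak length. Another 60 peaks under 700 bp, 41 on chromosome X and 19 on unplaced scaffolds, were not included and were counted with the other 14839 peaks.

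The peaks came from ChIP-seq of primary Schwann cells, the myelinating glia of peripheral nerve, grown from the sciatic nerve of adult Fisher rats. The cells had been passaged, first with neuregulin and forskolin, an activator of adenylyl cyclase, and then without either for the experiments in all 3 conditions. Cells were left untreated (control) or were given a brief pulse of cAMP (the cell-permeable analogue 8-CPT-cAMP in the methods of the study) for 30 min, after which the cAMP was washed out and chromatin was collected 30 min or 3.5 h later. The labels give 50 micromolar in one field and 100 micromolar in another for this pulse, and the samples of both washout times carried the same treatment. There were 3 H3K4me3 libraries and 3 genomic input libraries per condition, called control, 30 min and 3.5 h below. Nothing in the labels says that the libraries of a condition came from separate cultures or animals, so p-values measure the spread between these libraries, which may be technical.

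H3K4me3 is trimethylation of lysine 4 of histone H3, a mark that covers the promoters of active genes, where it often spans a broad block of nucleosomes around the transcription start. Methyltransferases of the KMT2 and SETD1 families write it and KDM5 demethylases remove it. The study asked how brief cAMP signaling and its withdrawal alter the mark across the genome. A peak under the width limit spans only a small number of nucleosomes. Genes and promoters were not assigned to the narrow peaks, because the annotation at hand used another genome build than Rnor_6.0, the build of the coordinates.

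Reads in peaks numbered 13762905 to 17160987 per ChIP library, of which 138157 to 192488 lay in narrow peaks. The median narrow peak held 57 to 93 reads per library, 1459 of the 1525 held at least 10 reads in every ChIP library, and all 1525 passed edgeR's filter on low counts. Reads outside all peaks made up 17.0% to 20.3% of aligned reads in control, 20.9% to 24.9% at 30 min, and 20.9%, 12.8% and 11.5% in replicates 1, 2 and 3 at 3.5 h. Pairs of libraries were compared over narrow peaks by chi-square divided by its degrees of freedom, which is 1 for pure counting noise and was 0.777, 0.943 and 0.857 for the control pairs, 0.967 to 1.31 at 30 min and 1.62 to 3.35 at 3.5 h. All 3 control pairs thus lay below the value of pure counting noise over these peaks, with libraries 1 and 2 the lowest. Control libraries 1 and 2 were kept as 2 libraries because their reads outside peaks differed (2817628 and 3683583). Results that change when they are summed are given with that value.

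Narrow peaks were spread over all 20 autosomes. Their share of a chromosome's peaks ran from 6.73% on chromosome 8 (60 of 892) to 12.4% on chromosomes 17 (71 of 573) and 18 (55 of 445). The median width was 547 bp (quartiles 451 and 628), against 1638 bp for the other peaks. The narrowest member was Peak_9396 at chr15:24197726-24198000, 275 bp wide, and the widest were 699 bp, among them Peak_6269 at chr5:155320635-155321333. The width limit did not fall at a gap in the data. There were 2 peaks of 699 bp and 3 of 698 bp just inside it, and 4 of 700 bp and 5 of 701 bp just outside. Control density, defined below, was 4.08 CPM per kb for Peak_6269 and 3.25 for Peak_11227, a 700 bp peak just outside.

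Narrow peaks carried a low density of H3K4me3. Density was taken as CPM per kb, that is reads relative to the TMM-scaled number of reads in peaks of the library and to peak length. TMM sets the typical peak to no change between libraries. In control the median narrow peak had 8.67 CPM per kb (quartiles 6.62 and 14.5, range 2.55 to 74.0), whereas the median of the other peaks was 34.0. The median per library was 8.65, 8.75 and 9.09 in control, 10.1, 9.56 and 10.2 at 30 min, and 8.79, 8.76 and 7.68 at 3.5 h. Across the 9 libraries the narrow median was 0.266 of that of the other peaks (range 0.228 to 0.299), lower in 9 of 9 (two-sided exact sign-flip permutation test over libraries, p = 0.00391, the smallest p that 9 libraries allow). The width of a called peak and its density come from the same reads, so this difference is not independent of how peaks were called.

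Within the narrow peaks density hardly followed width. Median control density was 8.82 CPM per kb for the 218 peaks under 400 bp, 8.15 for the 349 of 400 to 499 bp, 8.54 for the 448 of 500 to 599 bp and 9.39 for the 510 of 600 to 699 bp. Beyond the limit it climbed, to 10.6 from 700 bp to under 800 bp, 14.2 from there to under 1000 bp and 29.4 from there to under 1500 bp. The distribution had a long upper tail, and 84 narrow peaks (5.51%) lay above the median of the other peaks. The tallest were Peak_4983 at chr1:2073389-2073981 (593 bp, 74.0 CPM per kb), Peak_11860 at chr1:167372774-167373426 (653 bp, 70.6) and Peak_6285 at chr5:158041855-158042505 (651 bp, 70.5). Peak_4983 held 610, 620 and 637 reads in the control libraries, 636, 626 and 624 at 30 min and 634, 639 and 651 at 3.5 h. Its raw counts were much alike in all 9 libraries, but relative to the scaled library sizes the 30 min libraries lay below all control libraries (log2 fold change -0.17, edgeR adjusted p = 0.0992). It was called higher at 3.5 h against 30 min (0.16, edgeR adjusted p = 0.0225) and not called at 3.5 h against control (-0.02, adjusted p = 0.837). Duplicates had been removed, which caps a peak at 1 read per start and strand. On average over the 9 libraries, 53.2% of the possible starts of Peak_4983 were filled. The median over the 84 tall narrow peaks was 31.0%. The part of this cap in the changes of tall peaks, here and below, was not tested. At the other end of the density range were Peak_9943 (2.55 CPM per kb), Peak_9546 (2.95) and Peak_13163 (2.95). Peak_9546 held 18, 17 and 25 reads in control, 43, 37 and 54 at 30 min and 15, 10 and 7 at 3.5 h, so its 3 conditions did not overlap even before scaling.

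**Figure D1:**
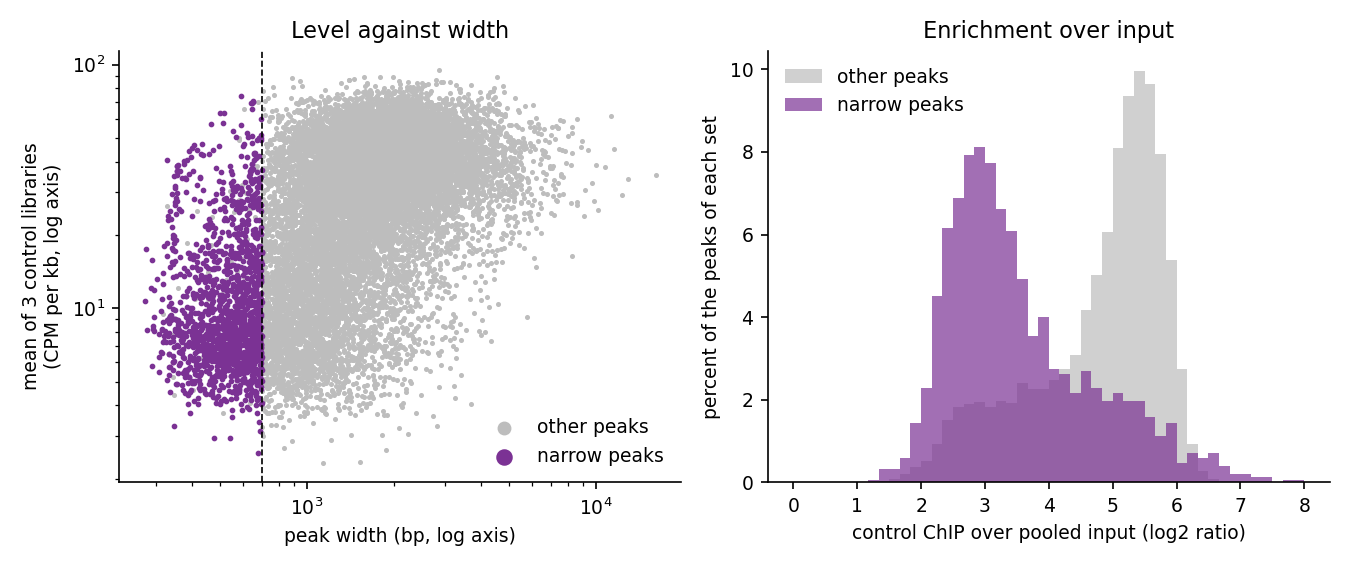
Left, peak width (bp, log axis) against the mean density of the 3 control libraries (CPM per kb, log axis), 1 point per peak, with the 700 bp limit dashed; right, log2 ratio of control ChIP over pooled input, as percent of the 1525 narrow and of the 14839 other peaks. Narrow peaks lie mostly near 8.67 CPM per kb, with a tail up to 74.0, and their enrichment peaks at a lower ratio than that of other peaks.

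All narrow peaks stood above the input in control, but less far than the other peaks. Enrichment was the share of aligned ChIP reads over the share of aligned input reads, with the 9 input libraries pooled. Summed over narrow peaks, the control libraries had 13.2 ± 0.373 (mean ± SD of 3 libraries, here and in the next sentence), those at 30 min 13.3 ± 0.150 and those at 3.5 h 13.5 ± 0.640. Over the other peaks it was 34.8 ± 0.749, 32.6 ± 0.961 and 36.2 ± 2.18. The narrow value was 0.386 of the other (range 0.354 to 0.416), lower in 9 of 9 libraries (two-sided exact sign-flip permutation test, p = 0.00391, again the smallest possible). Peak width and enrichment rest on the same ChIP reads, so this difference too is not independent of how peaks were called. The ratio rested little on the choice of input, but its absolute size did. Control replicate 3 and 30 min replicate 3 of the input were sequenced more deeply and held a larger share of their reads in narrow peaks, 0.0802% and 0.0951% of aligned reads against 0.0290% to 0.0592% in the other 7. Without these 2 libraries, an alternative chosen after seeing the data, control enrichment of narrow peaks was 21.7 ± 0.615 (SD, n = 3) and the ratio to other peaks was 0.387. With the input pooled within each condition, narrow enrichment was 12.7 ± 0.358 for control, 11.4 ± 0.129 for 30 min and 19.98 ± 0.947 for 3.5 h (mean ± SD), so the near equality of conditions held only with 1 input pool for all.

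The enrichment of single narrow peaks ran from 2.38 upward with a median of 9.49, against 34.2 for other peaks. It was 2 to 4 in 42 narrow peaks (2.75%), 4 to 8 in 548 (35.9%), 8 to 16 in 502 (32.9%) and 16 or more in 433 (28.4%). Of the other peaks 78.0% reached 16. The median narrow peak held 37 input reads over all 9 input libraries (range 1 to 202) and 59 held fewer than 10, so single ratios carry large counting error. Among peaks with at least 10 input reads, the highest control enrichments were those of Peak_8764 at chr13:47830702-47831213 (512 bp, 134-fold), Peak_4400 at chr18:65168638-65169297 (660 bp, 117-fold) and Peak_12267 at chr4:155115606-155116297 (692 bp, 108-fold). Peak_8764 held 396, 431 and 425 reads in control, 449, 443 and 447 at 30 min and 440, 431 and 439 at 3.5 h, beside 16 input reads. The lowest were Peak_7947 (2.38-fold), Peak_5089 (2.54-fold) and Peak_2033 (2.71-fold). Peak_2033, at chr7:2220126-2220682, held the most input reads of any narrow peak (202), and its control density of 13.5 CPM per kb was above the narrow median. A low ratio there went with a high input rather than with few ChIP reads. Input reads in narrow peaks, as a share of aligned input reads, were 0.0462% ± 0.0295 for control, 0.0566% ± 0.0333 at 30 min and 0.0436% ± 0.0142 at 3.5 h (SD, 3 input libraries each), and no pair of conditions was separated (two-sided exact permutation tests over libraries, p = 0.5, 1 and 0.7).

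Narrow peaks lay somewhat closer to their neighbours than the other peaks did as a set, but not than peaks just above the width limit. The median gap from a narrow peak to the nearest other peak was 16571 bp (quartiles 2328 and 55855, range 21 to 4773280), against 22180 bp for the other peaks. It was 16207 bp from 700 bp to under 800 bp (lower quartile 2415) and 17139 bp from there to under 1000 bp (lower quartile 3399). For the 5081 other peaks with a control density of 5.45 to 26.9 CPM per kb, the 10th and 90th percentiles of narrow peaks, it was 16878 bp. The sets differed at the short end. A gap under 1 kb was found for 323 narrow peaks (21.2%) and for 10.7% of the other peaks, while gaps of 100 kb or more were about as frequent in both, 211 narrow peaks (13.8%) against 14.3%. Gaps of 1 to 5 kb, 5 to 20 kb and 20 to 100 kb were found for 177, 328 and 486 narrow peaks. The nearest neighbour was itself narrow for 228 (15.0%) and for 9.41% of the other peaks. These are descriptions of 1 merged peak set, which has no replicate, and they were not tested.

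**Figure D2:**
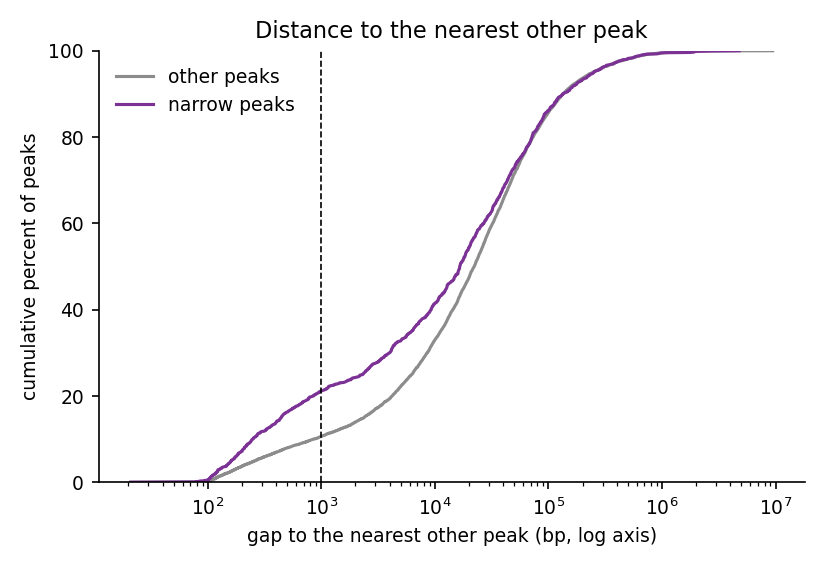
Cumulative percent of peaks against the gap to the nearest other peak (bp, log axis), for narrow and other peaks, with 1 kb dashed. At 1 kb the curve of narrow peaks is at 21.2% and that of other peaks at 10.7%, while 13.8% and 14.3% have gaps of 100 kb or more.

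Most narrow peaks with a close neighbour were the lower member of the pair. Among the 323 with a gap under 1 kb the neighbour had the higher control density in 246 (76.2%), with a median ratio of 1.94, and the neighbour was narrow in 55. The 211 narrow peaks with a gap of 100 kb or more did not differ much in this respect, with a higher neighbour in 77.7% and a median ratio of 2.11. Close narrow peaks were denser than those at 20 to 100 kb (median 10.4 against 8.16 CPM per kb) and more enriched over input (14.2 against 8.39). Seen from the other side, the 433 narrow peaks with 16-fold or more enrichment had a median gap of 7206 bp, and the 84 tall ones 10074 bp. The shortest gap, 21 bp, was that of Peak_6180 at chr5:140656270-140656918. It had 5.53 CPM per kb in control beside a neighbour with 39.05. The longest, 4773280 bp, was that of Peak_752 at chr2:69414909-69415506, which had 9.59 CPM per kb and 16.1-fold enrichment with no other peak nearby. Peak_752 held 80, 75 and 89 reads in control, 110, 91 and 107 at 30 min and 93, 100 and 90 at 3.5 h. Peak_9013 (gap 2736365 bp) and Peak_1653 (gap 2059887 bp) were next.

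The share of reads in peaks that lay in narrow peaks moved slightly with condition. The control libraries had 1.03%, 1.04% and 1.06% (mean 1.04%, SD 0.0182), the 30 min libraries 1.12%, 1.09% and 1.14% (mean 1.12%, SD 0.0260) and the 3.5 h libraries 1.05%, 1.05% and 0.971% (mean 1.02%, SD 0.0465). All 30 min libraries lay above all control libraries and above all 3.5 h libraries, while control and 3.5 h overlapped (two-sided exact permutation tests, p = 0.1, 0.1 and 0.8; adjusted over the 3 comparisons 0.15, 0.15 and 0.8). No p under 0.1 is possible with 3 libraries on each side. The separation depended on the denominator. As a share of all aligned reads, the control libraries held 0.850% ± 0.0240 in narrow peaks, those at 30 min 0.854% ± 0.00968 and those at 3.5 h 0.869% ± 0.0412 (mean ± SD), and all conditions overlapped (two-sided exact permutation tests, p = 0.8 for 30 min against control, 0.6 for 3.5 h against control and 0.8 for 3.5 h against 30 min). Reads outside peaks were more frequent in every 30 min library than in every control library, and their part in the shift of the first share was not tested.

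**Figure D3:**
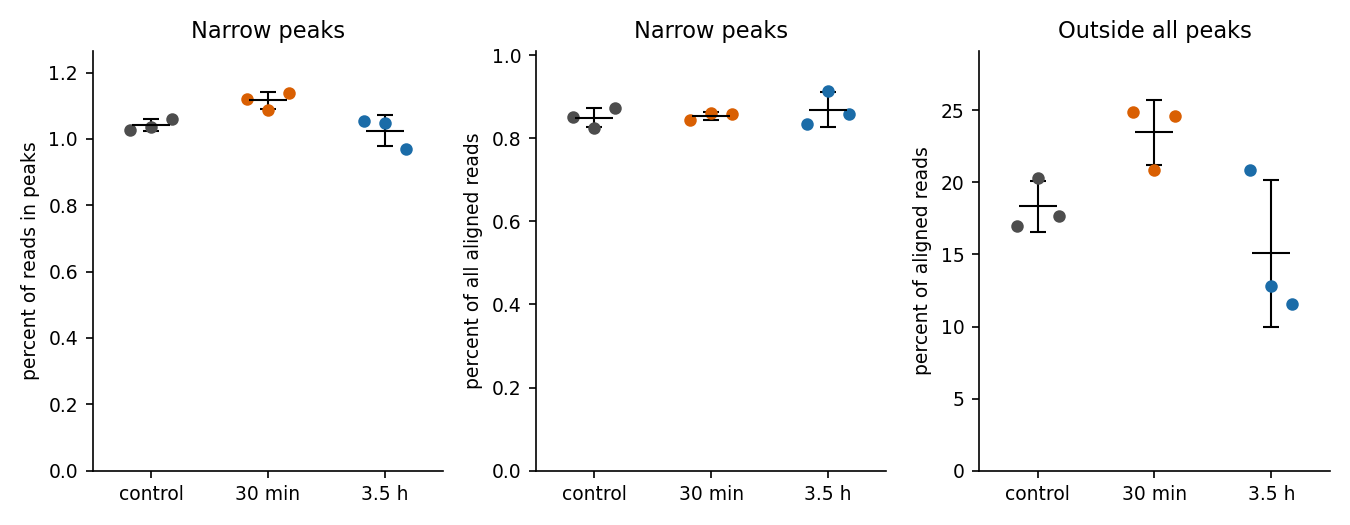
Reads in narrow peaks as percent of the reads in peaks (left) and of all aligned reads (middle), and reads outside all peaks as percent of aligned reads (right), 1 point per ChIP library with mean and SD of 3 libraries per condition. On the left the 30 min libraries (1.09% to 1.14%) lie above the others, in the middle the conditions overlap, and on the right the 3.5 h libraries range from 11.5% to 20.9%.

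The low end of the narrow peaks moved more than the high end. The 10th percentile of their density was 5.28 ± 0.149 CPM per kb for control, 6.29 ± 0.305 for 30 min and 3.85 ± 1.12 for 3.5 h (mean ± SD of 3 libraries), with 4.91, 3.95 and 2.68 in replicates 1, 2 and 3 at 3.5 h. The 90th percentile was 26.9 ± 0.347, 27.4 ± 0.0140 and 27.6 ± 0.217. Per library, the median log2 CPM of narrow peaks minus that of other peaks was higher at 30 min than in control by 0.16 and lower at 3.5 h than at 30 min by 0.24, with no overlap of libraries in either case (two-sided exact permutation tests, p = 0.1 each). At 3.5 h it differed from control by -0.07, with overlap (exact permutation p = 0.6). Set against only the 5081 other peaks of 5.45 to 26.9 CPM per kb in control, the differences changed. They were 0.04 at 30 min against control, -0.16 at 3.5 h against 30 min and -0.12 at 3.5 h against control. No libraries overlapped in these comparisons (exact permutation p = 0.1 each). The limits of that set come from the control libraries, which also enter the differences. Other peaks are denser as a set, and change ran with density, so narrow and other peaks are also set side by side within bands of control density in what follows. The 3 comparisons share libraries.

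Few narrow peaks changed 30 min after washout. By edgeR (quasi-likelihood fit, p adjusted after Benjamini and Hochberg over all 16364 peaks), 8 narrow peaks rose and 0 fell (0.525% of 1525), against 0.813% called in either direction, 0.532% higher and 0.281% lower over all peaks. At an unadjusted p under 0.05 there were 206 higher and 17 lower. DESeq2 gave 8 higher and 0 lower, beside 77 higher and 41 lower over all peaks. The median log2 fold change was 0.14 for narrow and 0.01 for other peaks. All 3 libraries at 30 min lay above all control libraries in 400 narrow peaks (26.2%; 18.3% of all peaks) and below them in 72 (4.72%; 17.5% of all peaks). This lean towards higher values belonged to the sparse peaks. With the narrow peaks in 4 groups of 381 or 382 by control density, from lowest to highest, the median log2 fold change was 0.31, 0.15, 0.13 and 0.02, and over the 84 tall narrow peaks it was -0.08. The groups were set with the control libraries that also enter the fold change. Other peaks in the same bands of density leaned the same way. In the lowest band (up to 6.62 CPM per kb; 382 narrow and 753 other peaks) the 30 min libraries lay above all control libraries in 42.1% of narrow and 40.6% of other peaks, with medians of 0.31 and 0.24. In the next band (up to 8.67 CPM per kb; 381 narrow and 705 other peaks) they did so in 18.4% and 32.8%, with medians of 0.15 and 0.17. The bands were chosen after the data were seen. With loess offsets, which remove any trend with abundance from each library, the narrow median was -0.03. There 1 narrow peak rose and 2 fell, beside 75 higher and 36 lower over all peaks. Scaling to all aligned reads moved the median of other peaks to -0.08 and that of narrow peaks to 0.05. In that fit 7 narrow peaks were higher and 1 lower, beside 35 higher and 33 lower over all peaks.

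The largest rise was that of Peak_11282 at chr20:45481451-45481798, 348 bp wide. It held 11, 21 and 17 reads in control, 59, 43 and 53 at 30 min and 26, 26 and 16 at 3.5 h. All 30 min libraries were above those of the other conditions (log2 fold change against control 1.47 ± 0.25 SE, edgeR adjusted p = 0.0187), and at 3.5 h the peak was again lower than at 30 min (-1.06 ± 0.23, adjusted p = 0.00336). Peak_7013 at chr7:137141903-137142246, 344 bp wide, held 26, 29 and 27 reads in control, 94, 72 and 57 at 30 min and 66, 70 and 71 at 3.5 h. It rose at 30 min (1.25 ± 0.20, edgeR adjusted p = 0.0156) and was still higher at 3.5 h (1.27 ± 0.20, adjusted p = 0.00089). Peak_6606 at chr6:135112674-135113024 showed the same order, with 46, 35 and 42, then 98, 86 and 80, then 80, 78 and 87 reads. Its log2 fold changes against control were 0.91 ± 0.16 (edgeR adjusted p = 0.0232) and 0.93 ± 0.16 (adjusted p = 0.00144). Peak_13217 at chr6:109533257-109533892 rose and then fell, with 39, 45 and 53 reads in control, 96, 93 and 80 at 30 min and 39, 37 and 26 at 3.5 h. Its rise was 0.79 ± 0.17 (edgeR adjusted p = 0.0480), and after scaling its 3.5 h libraries lay below all control libraries (-0.48, edgeR adjusted p = 0.0731). Peak_9313, Peak_4888, Peak_11754 and Peak_12362 made up the 8, with log2 fold changes of 0.98, 0.70, 0.59 and 0.52.

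Of these 8 peaks, 6 were also called higher at 3.5 h against control, and the other 2, Peak_11282 and Peak_13217, were called lower at 3.5 h against 30 min. The calls at 30 min rested on all libraries. Without any 1 of the control libraries, or without 30 min replicate 1, no narrow peak passed in edgeR's test (115 to 183 higher and 6 to 14 lower at an unadjusted p under 0.05). Over all peaks only 18, 13 and 28 passed without control replicates 1, 2 and 3, and 22 without 30 min replicate 1. Without 30 min replicate 2, 1 narrow peak passed, of 32 peaks in all, and without 30 min replicate 3, 4 of 55. When control libraries 1 and 2 were summed as 1 library, no narrow peak passed, and 21 of all peaks did. In that fit 143 narrow peaks were higher and 10 lower at an unadjusted p under 0.05. When edgeR was fitted to control and 30 min alone, so that the wider spread at 3.5 h did not enter, 101 were higher and 6 lower (7.02% of narrow peaks), while 12.5% of all peaks were called in that fit, 976 higher and 1068 lower.

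**Figure D4:**
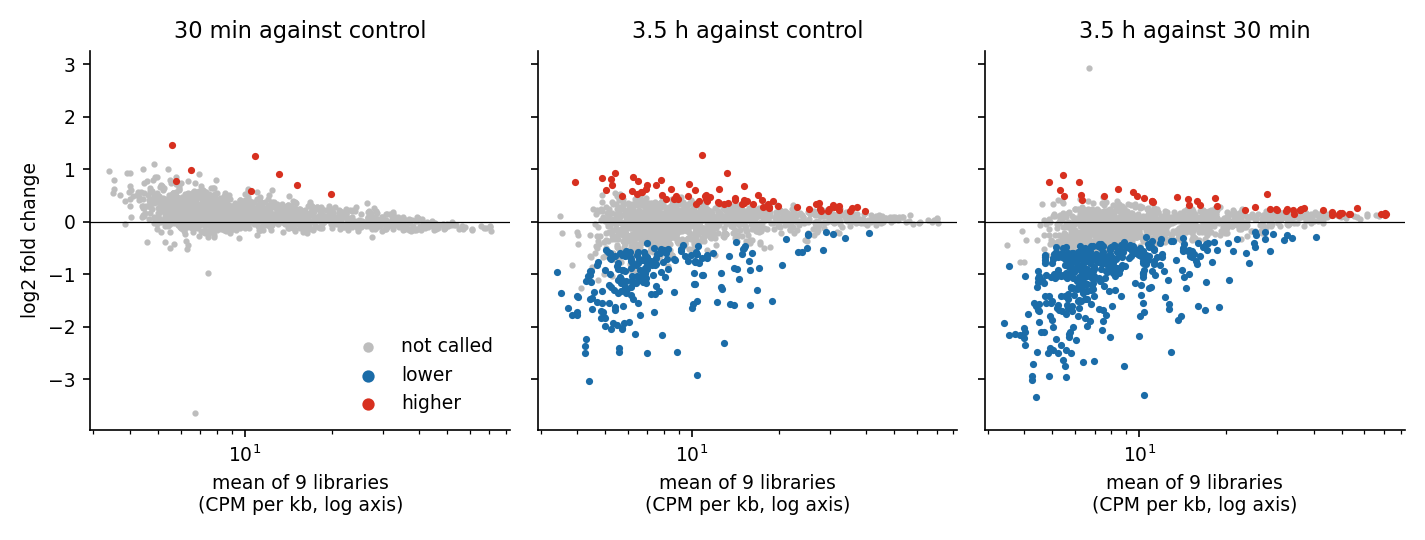
Mean density of the 9 ChIP libraries (CPM per kb, log axis) against log2 fold change for the 1525 narrow peaks in the 3 comparisons, with peaks past edgeR's adjusted p of 0.05 in blue (lower) or red (higher). Few points are coloured at 30 min, and at 3.5 h the largest falls, down to -3.04 against control, lie at low density.

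At 3.5 h more narrow peaks had changed, and most of the changes were falls. Against control 214 fell and 72 rose (18.8% of narrow peaks) in edgeR's test, while over all peaks 31.6% were called, 17.8% lower and 13.7% higher. Falls were 74.8% of the narrow calls. In the lowest density band 19.1% of narrow and 18.7% of other peaks were called lower than control. In the next band the shares were 17.1% and 14.5%. In the band up to 14.5 CPM per kb they were 11.55% and 15.5%, and in the highest 8.40% and 18.9%. All 3 libraries at 3.5 h lay below all control libraries in 320 narrow peaks (21.0%; 24.8% of all peaks) and above them in 239 (15.7%; 22.8% of all peaks). Falls were 67.4% of the narrow calls (209 lower, 101 higher) when scaled to all aligned reads, where 1322 of all peaks were lower and 2554 higher. With loess offsets they were 54.8% (172 lower, 142 higher), beside 2896 lower and 2515 higher over all peaks. The median log2 fold change of narrow peaks was -0.01. The count of changed narrow peaks was 158 without control replicate 1 (10.4%, all peaks 17.6%) and 175 without control replicate 2 (11.5%, all peaks 20.1%). It was 166 without 3.5 h replicate 2 (10.9%, all peaks 18.2%) and 432 without 3.5 h replicate 1 (28.3%, all peaks 42.5%). With control libraries 1 and 2 summed it was 202 (166 lower, 36 higher), or 13.2%, beside 3931 of all peaks (24.0%).

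The deepest falls brought narrow peaks down to a handful of reads. Peak_347 at chr17:18104753-18105288, 536 bp wide, held 43, 40 and 46 reads in control, 90, 50 and 41 at 30 min and 7, 5 and 4 at 3.5 h. Its log2 fold change against control was -3.04 ± 0.39 (edgeR adjusted p = 0.00029), and its enrichment over input went from 9.20 to 1.14. Peak_9142 at chr14:24094452-24094870, 419 bp wide and 481600 bp from the nearest other peak, held 74, 63 and 92 reads in control, 134, 106 and 97 at 30 min and 5, 14 and 12 at 3.5 h. Its change was -2.93 ± 0.29 (edgeR adjusted p = 7.3e-05). Peak_10971 at chr1:137209208-137209889, 682 bp wide and only 245 bp from its neighbour, held 69, 62 and 59 reads, then 115, 95 and 89, then 10, 14 and 11, a change of -2.49 ± 0.22 (edgeR adjusted p = 3.1e-05). In all 3 of these peaks the 3.5 h libraries lay far below the other 6, and separation from control was set by the choice. Peak_9551 at chr15:87968474-87968900 held 32, 24 and 33 reads in control, 55, 49 and 41 at 30 min and 5, 4 and 7 at 3.5 h (-2.51 ± 0.32, edgeR adjusted p = 0.00031). Peak_10359 at chr19:18582344-18582639, 296 bp wide, had unequal 3.5 h libraries. It held 33, 42 and 41 reads in control, 57, 49 and 41 at 30 min, and 18, 2 and 1 at 3.5 h (-2.51 ± 0.48, edgeR adjusted p = 0.00265).

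**Figure D5:**
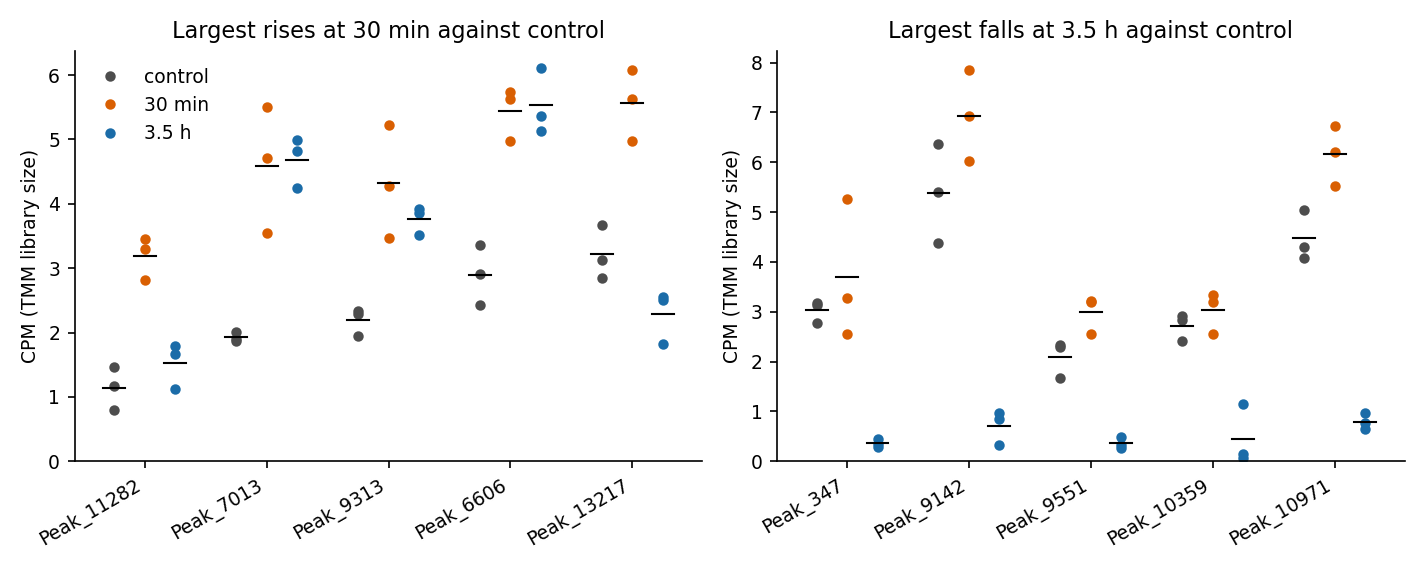
CPM in each ChIP library for the 5 narrow peaks with the largest rise at 30 min (left) and the 5 with the largest fall at 3.5 h (right), both against control, with 1 point per library and a bar at the mean of 3. The 30 min libraries lie above control on the left, and the 3.5 h libraries lie below all others on the right. Both sets were picked among peaks without overlap with control, so that separation from control was set by the choice.

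Rises at 3.5 h were smaller. Beside Peak_7013 and Peak_6606, the largest were those of Peak_6592 at chr1:31710516-31710922, Peak_8149 at chr10:74764848-74765275 and Peak_4824 at chr2:187978520-187979068. Peak_6592 held 27, 26 and 19 reads in control, 37, 22 and 25 at 30 min and 55, 49 and 39 at 3.5 h (0.92 ± 0.23, edgeR adjusted p = 0.0090). Peak_8149 went from 28, 25 and 31 through 40, 40 and 41 to 52, 56 and 50 reads (0.85 ± 0.18, edgeR adjusted p = 0.00376). Peak_4824 held 33, 27 and 29 reads in control, 35, 35 and 37 at 30 min and 61, 54 and 50 at 3.5 h (0.83 ± 0.17, edgeR adjusted p = 0.00412). Named rises were picked among peaks without overlap of libraries, so the separation in these 3 peaks was set by the choice.

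From 30 min to 3.5 h, 402 narrow peaks fell and 50 rose (29.6%), against 41.2% called over all peaks, 23.3% lower and 17.9% higher. Falls were 88.9% of these calls. The 3.5 h libraries lay below all 30 min libraries in 511 narrow peaks (33.5%; 26.6% of all peaks) and above them in 141 (9.25%; 22.9% of all peaks). The median log2 fold change was -0.14 in narrow and 0.01 in other peaks. The direction depended on the scaling. Falls were 59.3% of the calls (340 lower, 233 higher) when scaled to all aligned reads, where 1668 of all peaks were lower and 7878 higher, the median of all peaks stood at 0.16 and that of narrow peaks at 0.02. With loess offsets they were 47.4% (226 lower, 251 higher), beside 3656 lower and 3164 higher over all peaks, and the narrow median was 0.11. The sparse peaks again moved most. The median was -0.36, -0.24, -0.14 and 0.07 from the lowest to the highest of the 4 density groups. Of the 84 tall narrow peaks 18 rose and 2 fell, so 23.8% were called. In the highest density band 22.55% of other peaks were called higher and 21.1% lower, against 8.66% and 13.1% of narrow peaks. Other peaks of low density moved in the same direction as narrow peaks of low density. In the lowest density band 38.7% of narrow and 40.6% of other peaks were called lower than at 30 min, with medians of -0.36 and -0.28. In the next band the shares were 30.2% and 29.8%, with medians of -0.24 and -0.10.

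Peak_347 (-3.34 ± 0.37, edgeR adjusted p = 5.7e-05) and Peak_9142 (-3.30 ± 0.27, adjusted p = 1.1e-05) were also the largest falls from 30 min, followed by Peak_9551, Peak_10971 and Peak_10976. Peak_10976 at chr2:208575928-208576346 stood higher at 30 min than in the other conditions, with 26, 22 and 28 reads in control, 90, 57 and 40 at 30 min and 8, 6 and 8 at 3.5 h. It fell from 30 min by 2.93 on the log2 scale (SE 0.34, edgeR adjusted p = 7.9e-05). The largest rises, with Peak_6592 and Peak_4824, were Peak_6398, Peak_4508 and Peak_5329. Peak_4508 at chr19:25856871-25857554 held 58, 73 and 77 reads in control, 74, 76 and 87 at 30 min and 133, 110 and 94 at 3.5 h (0.63 ± 0.14, edgeR adjusted p = 0.00453).

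Read across the 3 comparisons, which share libraries, 1012 narrow peaks (66.4%) were called in none, against 50.4% of all peaks. Another 208 (13.6%; 15.1% of all peaks) were lower at 3.5 h than in both other conditions, and 192 (12.6%; 7.93%) were lower than at 30 min only. At 3.5 h, 49 (3.21%; 5.46%) were higher than control only, 33 (2.16%; 9.63%) higher than 30 min only, 17 (1.11%; 8.04%) higher than both and 6 (0.393%; 2.67%) lower than control only. The differences between these shares were not tested. The 8 that rose at 30 min made up the rest.

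Narrow peaks made up a large share of the falls of more than 2-fold at 3.5 h, a limit chosen after the data were seen and given as a description. Of 222 peaks that were called lower than control by more than 1 on the log2 scale, 103 were narrow (46.4%). They were 6.75% of narrow peaks and 0.802% of the other peaks, which as a set are denser. Within the lower bands of control density the shares lay closer. Such falls were found in 50 of 382 narrow and 60 of 753 other peaks up to 6.62 CPM per kb (13.1% and 7.97%), in 30 of 381 and 16 of 705 from there up to 8.67 (7.87% and 2.27%), and in 15 of 381 and 27 of 1419 from there up to 14.5 (3.94% and 1.90%). In the highest band, up to 74.0, such falls were found in 8 of 381 narrow and 16 of 11848 other peaks (2.10% and 0.135%). The other peaks of that band were denser, with a median of 38.2 against 23.1 CPM per kb. At the same density a narrow peak holds fewer reads than a wider one, and the part of read number in these shares was not tested. Only 1 narrow peak, Peak_7013, rose by as much. The 103 lay on all 20 autosomes and had a median width of 501 bp, a median control density of 6.83 CPM per kb and a median gap of 18640 bp. A gap under 1 kb was found in 23 of them and one of 100 kb or more in 19. Their median CPM per library was 3.50, 3.40 and 3.67 in control, 5.04, 4.25 and 4.04 at 30 min and 1.80, 1.17 and 0.773 at 3.5 h. Median enrichment over input was 9.23 in control, 11.8 at 30 min and 3.63 at 3.5 h, so at 3.5 h most still stood above the input. Against 30 min, 163 narrow peaks fell by more than 2-fold, of 424 in all (38.4%), and this count became 91 of 260 with loess offsets and 98 of 345 among peaks with at least 10 reads in every library.

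The 3.5 h libraries did not contribute alike to these falls. The 103 of 222 became 64 of 138 without 3.5 h replicate 3 and 161 of 397 without 3.5 h replicate 1. Among peaks with at least 10 reads in every library, a filter that itself removes peaks that fell to few reads, 50 of 158 such falls (31.6%) were narrow, and with loess offsets 70 of 183 (38.3%). Of the 103, 100 had all 3.5 h libraries below all control libraries. In 77 (74.8%) replicate 1 was the highest and replicate 3 the lowest of the 3.5 h libraries with replicate 2 between them, an order found in 36.3% of all narrow peaks. The share of aligned reads outside peaks had the same order (20.9%, 12.8% and 11.5%), and its part in these falls was not tested.

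Some narrow peaks came close to the input level at 3.5 h. A narrow peak had less than 2-fold enrichment in 0, 0 and 1 cases in the control libraries, in 1, 1 and 1 at 30 min, and in 11, 17 and 58 at 3.5 h. All 3.5 h libraries exceeded all others. Exact permutation tests over libraries gave p = 0.1 against control and against 30 min, and p = 0.4 for 30 min against control. The limit of 2 was set after the data were seen, so these values are a description only. With the libraries of a condition pooled there were 0, 1 and 13 such narrow peaks. Over other peaks the counts at 3.5 h were 9, 17 and 55 of 14839. Enrichment here uses the input pooled over all conditions.

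Agreement between libraries was lowest at 3.5 h. The highest library exceeded the lowest by more than 3-fold, with 0.5 added to each count, in 1 narrow peak in control, in 0 at 30 min and in 65 (4.26%) at 3.5 h, against 0.666% of all peaks at 3.5 h. A limit on the ratio favours peaks with few reads. Chi-square per degree of freedom at 3.5 h was 2.41 over narrow and 2.71 over other peaks. This measure grows with read number where libraries differ beyond counting noise. Narrow peaks held fewer reads, with a median of 643 over the 9 ChIP libraries against 7743. The measure therefore cannot rank the spread of narrow and other peaks. Of the 65 peaks past the 3-fold limit, 45 held at least 30 reads in one 3.5 h library. Among these 45, replicate 1 was the highest in 44 and replicate 3 the lowest in 44. The 65 included 41 of the 103 narrow peaks with a fall of more than 2-fold. Median coefficients of variation between libraries were 8.77%, 8.97% and 12.9% in control, at 30 min and at 3.5 h. At these read numbers the true SD from counting noise alone would be 12.3%, 10.9% and 12.3% of the mean. The median SD of 3 libraries falls below the true SD, so these values cannot be set directly against each other.

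A single narrow peak was nearly on or off from library to library. Peak_5923 at chr4:170856817-170857208, 392 bp wide, held 97, 100 and 3 reads in the control libraries, 6, 5 and 7 at 30 min and 129, 1 and 0 at 3.5 h. It was high in control replicates 1 and 2 and in 3.5 h replicate 1, and near empty in the other 6. Its log2 fold change of -3.64 at 30 min was the lowest of all narrow peaks in that comparison but did not pass the test (edgeR adjusted p = 0.167). With Peak_10359, 3 others, Peak_10294, Peak_14554 and Peak_14947, also differed by more than 10-fold between 3.5 h libraries. Peak_14554 held 67, 52 and 65 reads in control, 116, 101 and 84 at 30 min and 50, 21 and 3 at 3.5 h. These 5 peaks were chosen after their values were seen.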

How the data were processed

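H3K4me3 ChIP and genomic input DNA of primary rat Schwann cells were sequenced in 18 libraries, 3 per condition and kind. After trimming and alignment to Rnor_6.0, the authors discarded duplicates and reads with several matches, called peaks with MACS2, kept the reproducible ones, merged them over treatments and counted reads in each. The deposited values are raw counts per merged peak, without normalization. The labels' processing notes also name CASAVA 1.4. Removal of duplicates keeps 1 read per start and strand, which caps the count of a peak, and narrow peaks had a median of 6.66% of their possible starts filled (maximum 53.2%). The 18 single files and the combined table differed in 0 values. Width was end minus start plus 1, and coordinates are given as deposited. Reads that HTSeq assigned to no peak stayed out of library sizes and tests.

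Changes were tested over all 16364 peaks with edgeR 4.0.16 in R 4.3.3 (glmQLFit and glmQLFTest, TMM, filterByExpr, 9 ChIP libraries, condition as the only term) and called at a Benjamini-Hochberg adjusted p under 0.05. The SE is the log2 fold change over the square root of F. Values per library were compared by exact permutation tests over 3 against 3 libraries, and log2 CPM used a pseudocount of 0.5 reads. The tests were checked on simulated counts. Alternatives were no TMM, aligned reads as library size, loess offsets (span 0.3), DESeq2 1.42.0 without independent filtering, other filters and thresholds, other width limits, a replicate block and leaving out each library. Python 3.11.15 with numpy 2.4.6 and pandas 2.3.3 was used for the rest.

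Named peaks were, among narrow peaks, the 5 largest falls and 5 largest rises of each comparison past the threshold with no overlap of libraries. To these were added the 3 highest and 3 lowest by control density and by enrichment (at least 10 input reads), the 3 shortest and 3 longest gaps, the 3 narrowest, and the peaks at the width limit. Narrow peaks, this rule and the alternatives were chosen with earlier results of these data known. Gene overlap, cell type markers and base composition were not analysed here, for want of a reference of the same build.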

Additional observations from a re-analysis of the deposited data

How the results depend on the processing

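The count of narrow peaks changed at 30 min against control (8) was the least stable. It was 3 with loess offsets (2 lower, 1 higher), 0 at an adjusted p under 0.01, 15 for widths under 800 bp, 13 with the replicate number as a block (0 lower, 13 higher), 107 with only the compared conditions in the fit, 0 with control libraries 1 and 2 summed (added after seeing the data), and 0 to 4 without 1 library. The count at 3.5 h against control (286) was 120 at an adjusted p under 0.01 (7.87%, all peaks 15.2%) and 177 for widths under 600 bp (17.4% of 1015). With control libraries 1 and 2 summed it was 202 (13.2%, all peaks 24.0%). Without 1 library it was 158 to 432 (10.4% to 28.3%, all peaks 17.6% to 42.5%). The count at 3.5 h against 30 min (452) was 267 at an adjusted p under 0.01 (17.5%, all peaks 24.2%) and 291 for widths under 600 bp (28.7% of 1015). Without 1 library it was 313 to 562 (20.5% to 36.9%, all peaks 28.5% to 49.9%). The counts by threshold and width limit follow from a stricter limit or another number of peaks. For the others the cause was not tested. Over all peaks, 133 were called at 30 min against control in the main fit. That became 13 to 55 without 1 library and 21 with control libraries 1 and 2 summed. It became 111 with loess offsets, 22 at an adjusted p under 0.01, 244 with the replicate block and 2044 with only the compared conditions. Of narrow peaks, the replicate block gave 286 (18.8%, all peaks 34.1%) at 3.5 h against control. Against 30 min it gave 438 (28.7%, all peaks 42.3%). The numbers were not taken to pair the libraries, since the correlations of deviations from the condition means between same-numbered libraries ranged from -0.213 to 0.353 and not every library correlated best with its own number.

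The share of reads in peaks at 3.5 h minus control (-0.0164 percentage points) was 0.0190 with all aligned reads as denominator, and that at 3.5 h minus 30 min (-0.0919) was 0.0149. Without 1 library these ranged from -0.0312 to 0.0104 and from -0.107 to -0.0651, and the positive value came without 3.5 h replicate 3. The difference in median log2 CPM at 3.5 h against control ranged from -0.12 to 0.0015 without 1 library. Input shares differed by -0.00885 to 0.0274 at 30 min against control, by -0.0112 to 0.0144 at 3.5 h against control and by -0.0226 to 0.00627 at 3.5 h against 30 min without 1 input library, so their sign was not fixed. Density and enrichment of narrow peaks were below those of other peaks in 9 of 9 libraries under every alternative run. The median gap was 16571 bp (95% interval 14880 to 18437), and 17626 bp between midpoints. No named rise or fall changed sign in any fit, but the 5 named rises at 30 min each lost their call in 8 to 11 of 16 alternatives, with adjusted p from 0.000423 to 0.244 (Peak_11282 between 1.22 and 1.68 on the log2 scale). Peak_5329 lost its call at 3.5 h against 30 min in 6 of 15, with adjusted p up to 0.135. All other named changes kept theirs. Depth limits single peaks to a counting error near 12.3% per library at the median.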
